A study of Mus musculus with 24 samples.

Results

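Cytosolic ribosomal protein genes were followed across RNA-seq libraries of 2 kinds of mouse macrophage, with and without Olfml3 and with and without lipopolysaccharide (LPS). The genes were taken by symbol: any Rpl or Rps symbol made of a number and at most a short suffix, together with Rplp0, Rplp1, Rplp2 and Rpsa, and without symbols containing -ps. This gave 89 of the 56691 genes in the tables, 53 of the large and 36 of the small ribosomal subunit. The data comprised 24 libraries in 8 groups of 3. RAW264.7, a mouse macrophage-like leukemia line, was compared with a line in which Olfml3 had been targeted by a lentiviral sgRNA and from which single-cell clones were taken, so clone and knockout cannot be told apart. Bone marrow-derived macrophages (BMDMs) came from male mice, wild type or carrying a global CRISPR-Cas9 knockout of Olfml3 (Olfml3-/-) on the C57BL/6 background, and were grown with L929 cell supernatant. Each genotype received PBS or 100 ng/mL LPS for 4 h. Replicates are called biological in the study, but the labels do not say whether the 3 libraries of a group came from separate cultures or animals, so the p-values measure the spread between libraries, part of which may be technical.

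The cytosolic ribosome is built from a large and a small subunit, each a scaffold of ribosomal RNA with many proteins on it, and the proteins are made in matched amounts. Their mRNAs are among the most abundant in growing cells, and many begin with a run of C and U bases, the 5′ terminal oligopyrimidine (TOP) tract, through which mTOR signalling sets their translation. A few ribosomal proteins have paralogs (Rpl22 and Rpl22l1, Rpl3 and Rpl3l, Rps27 and Rps27l) that can take the place of the common form, and intronless pseudogene copies of these genes are scattered over the mammalian genome.

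A start-site view of 6 members is shown because the TOP tract is the feature that this gene class is best known for. The RefSeq promoter table for GRCm38.p6 held 64 of the 89 members. A tract was counted where a C within 10 bases of the annotated start was followed by at least 4 more C or T bases on the gene strand, and 40 of the 64 members (62.5%) had one, against 9257 of 26961 other genes (34.3%). A tract beginning on the first transcribed base was found for 14 members (21.9%) and 799 other genes (2.96%). These are matches of letters only. In the lines that follow, 30 bases before and 20 bases after the annotated start are printed 5′ to 3′ on the gene strand, with the tract in capitals.
Rps6, chr4:86857348-86857397, minus strand: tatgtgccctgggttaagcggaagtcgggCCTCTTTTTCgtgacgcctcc
Rpl14, chr9:120571487-120571536, plus strand: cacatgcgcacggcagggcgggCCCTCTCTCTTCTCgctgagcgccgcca
Rpl22l1, chr3:28805478-28805527, plus strand: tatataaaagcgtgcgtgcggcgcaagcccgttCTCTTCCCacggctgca
Rpl10a, first of 2 starts, chr17:28328441-28328490, plus strand: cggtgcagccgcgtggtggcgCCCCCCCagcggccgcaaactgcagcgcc
Rps15, chr10:80292401-80292450, plus strand: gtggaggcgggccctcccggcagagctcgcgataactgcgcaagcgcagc
Rpl7l1, chr17:46782637-46782686, minus strand: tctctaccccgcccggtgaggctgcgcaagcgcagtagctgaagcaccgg
Rps6 is a target of the S6 kinases, Rpl14 had one of the largest falls in RAW264.7 cells, and Rpl22l1 was the one member called between BMDM genotypes. No such tract was in the window of Rps15 or Rpl7l1, nor in that of the second Rpl10a start, which is not printed.

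The targeted gene did not follow the labels in RAW264.7 cells. Olfml3 stood at 0.19, 0.15 and 0.15 FPKM (counts scaled for gene length and for the library total) in the wild type PBS libraries and at 0.65, 1.01 and 1.19 in the libraries labelled knockout. With LPS it stood at 0.13, 0.13 and 0.29 FPKM in wild type and at 18.93, 18.77 and 18.33 in the libraries labelled knockout. In BMDMs it went with the labels, at 0.61, 0.53 and 0.65 FPKM in wild type PBS libraries against 0.03, 0.01 and 0.01 in Olfml3-/-. RNA levels do not show whether the protein was lost, and in RAW264.7 the groups are called by their labels throughout.

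The shallowest RAW264.7 library held 11638273 counts and the deepest 16478616, and BMDM libraries held between 17121240 and 22873094. One RAW264.7 library, knockout PBS replicate 1, stood apart from its group in ribosomal protein gene counts, and results that use it are given with and without it. All 7 macrophage markers were above 1 FPKM in BMDMs, and 6 of 7 in RAW264.7, where Mertk was at 0. The summed macrophage markers were 2914 to 2945 FPKM in RAW264.7 wild type PBS libraries, 1054 to 1286 in those labelled knockout, 2729 to 2870 in wild type LPS libraries and 829 to 862 in knockout LPS libraries. Summed T cell, B cell and erythroid markers reached at most 0.28 FPKM in any library. Fibroblast markers summed to at most 0.28 FPKM in RAW264.7 and to 0.33 to 1.43 in BMDMs, and neutrophil markers to at most 0.2 and to 4.58 to 7.99, with Ly6g at 0 in both tables. The part of these marker differences in the results was not tested.

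In RAW264.7 cells the 89 genes took 4.53, 4.38 and 4.34% of all counts in the wild type PBS libraries. In the libraries labelled knockout they took 4.83% in replicate 1 but 2.80 and 2.78% in replicates 2 and 3. With LPS the wild type shares were 4.04, 4.09 and 4.13%, and the knockout shares were 2.84, 2.82 and 2.88%, with no overlap between genotypes. In BMDM libraries the share was smaller, at 1.99, 2.00 and 1.98% in wild type PBS libraries and 2.01, 2.00 and 2.05% in Olfml3-/-. The 2 cell types were deposited apart, so in this difference cell type and the way counts were assigned to genes cannot be told apart. With LPS the BMDM shares were 1.61, 1.43 and 1.43% in wild type and 1.57, 1.57 and 1.56% in Olfml3-/-.

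**Figure D1:**
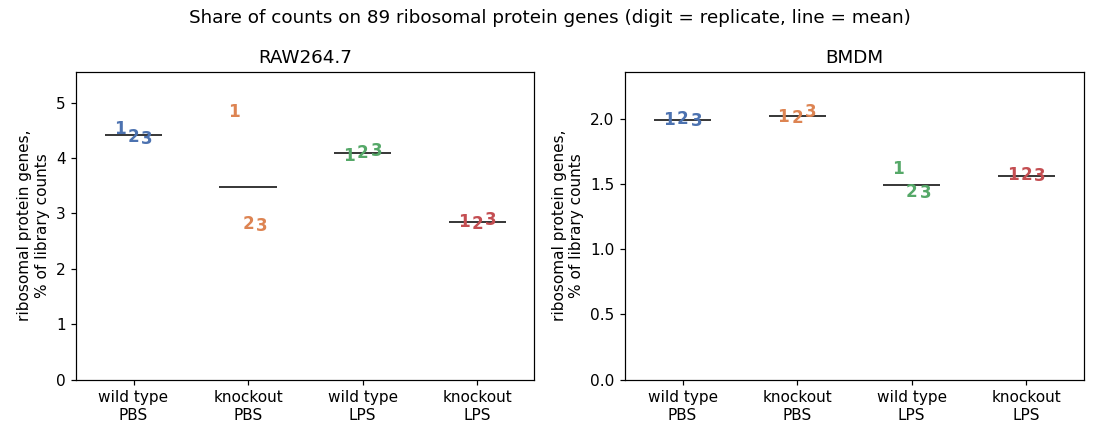
Percent of all counts in each library that fell on the 89 ribosomal protein genes (vertical axis), by group (horizontal axis), for RAW264.7 and BMDM. Each digit is 1 library, named by its replicate number, and the line is the group mean. RAW264.7 knockout PBS replicate 1 (4.83%) lies above the wild type libraries and replicates 2 and 3 (2.80 and 2.78%) lie below them.

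The sum of FPKM over all genes also differed between libraries, which matters because FPKM is not scaled to a fixed sum. It was 357350 to 361580 in RAW264.7 wild type PBS libraries, 356160 in knockout PBS replicate 1, and 296110 and 295260 in replicates 2 and 3. With LPS it was 363160 to 367540 in wild type and 309690 to 311280 in knockout. As a share of that sum, the ribosomal protein genes made up 8.34, 8.14 and 8.08% in wild type PBS libraries, 9.12% in knockout replicate 1, and 6.27 and 6.18% in replicates 2 and 3. In BMDM libraries the sum of FPKM lay between 292810 and 309470.

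Of the 89 members, 84 had a mean of at least 1 FPKM in each table. In RAW264.7 the remaining 5 were Rpl10l, Rpl39l, Rpl3l, Rps12l1 and Rps4l, and in BMDMs they were Rpl10l, Rpl32l, Rpl39l, Rpl3l and Rps12l1. Expression could be tested for 86 members in RAW264.7 and 87 in BMDMs. The 84 genes ranged from 1.83 to 2183 FPKM in RAW264.7, with a median of 118, and from 1.37 to 596 FPKM in BMDMs, with a median of 95.0. The highest 5 over all libraries were Rplp1, Rps15, Rpl4, Rps3a1 and Rpl8. Rplp1 encodes an acidic protein of the ribosomal stalk, which recruits elongation factors.

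Levels of the same gene differed far between the tables. Of 83 members at 1 FPKM or more in both, 31 were lower in RAW264.7 and 52 were higher, and the ratio of means ran from 0.0202 for Rpl29 to 377 for Rps3a2. Rps2, a small subunit protein, averaged 6.64 FPKM in RAW264.7 and 264 in BMDMs. In the same RAW264.7 libraries, genes named as Rps2 pseudogenes held 186734 counts against 2051 on Rps2 itself, and in BMDMs they held 1634 against 123559. Rpl3, next to the peptidyl transferase centre, had 14115 counts of its own in RAW264.7 and 106964 on its pseudogenes. Over all members, pseudogenes with -ps symbols held 891201 counts in RAW264.7 and 109655 in BMDMs. For some other genes with a gap few counts fell on pseudogenes with -ps symbols. Rpl29 had 417 counts of its own and 38 on such pseudogenes in RAW264.7, and Rpl26 had 1996 and 10. Copies under other symbols were not counted. The source of the gaps was not tested, and apart from these values levels of single members are compared within a table only.

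**Figure D2:**
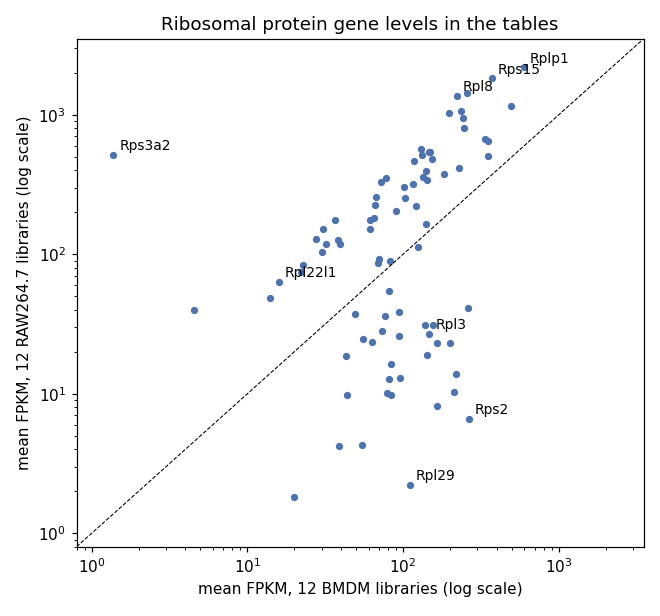
Mean FPKM of each ribosomal protein gene in 12 RAW264.7 libraries (vertical axis, log scale) against 12 BMDM libraries (horizontal axis, log scale). Each point is 1 gene and the dashed line marks equal values. Rps2 (6.64 against 264 FPKM) lies far below the line and Rps3a2 far above it.

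Under PBS, the RAW264.7 libraries labelled knockout split. A gene was called where its Benjamini-Hochberg adjusted p in limma, over every gene tested, fell below 0.05 and it differed by 1.5-fold or more. Of 86 members tested, 1 was called, Rpl6l, which was lower, against 8.55% of all 26740 genes tested, 3.77% called lower. Rpl6l, a copy of the large subunit gene Rpl6, stood at 173, 165 and 156 FPKM in wild type and at 146, 91.6 and 96.1 in knockout libraries. All 3 knockout values lay below the wild type ones, and the log2 fold change was -0.60 (SE 0.16, adjusted p = 0.0384 by limma). The median log2 fold change of the members was -0.41, beside 0.02 over all genes tested.

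The members themselves showed the split gene by gene. Among the 84 genes at 1 FPKM or more, replicate 1 lay above every wild type library for 61 genes, within their range for 21 and below it for 2. Replicates 2 and 3 both lay below every wild type library for 73 of the 84 and above for 2. Over all genes tested, these 2 replicates did not overlap with wild type for 46.8%, in either direction. The share of all genes with replicate 1 above wild type was not counted. Rps15, a small subunit protein, stood at 2419, 2309 and 2385 FPKM in wild type, at 2368 in knockout replicate 1 and at 1328 and 1302 in replicates 2 and 3. Rplp1 stood at 2357, 2296 and 2272 FPKM in wild type, at 3453 in replicate 1 and at 1839 and 1752 in replicates 2 and 3. Rpl4, by contrast, stood at 1420, 1379 and 1412 FPKM in wild type and at 1984, 1441 and 1422 in the knockout libraries, none of which was below the wild type.

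Without replicate 1, 54 of 86 members were called, all lower, against 20.8% of all genes called in either direction and 8.11% called lower. The median of the members was then -0.67. The largest differences were in Rpl26 (-1.11, SE 0.20, adjusted p = 0.0025 by limma) and Rpl38 (-1.09, SE 0.11, adjusted p = 9.8e-05 by limma), both of the large subunit. Libraries did not overlap for 75 of the 86 members, against 46.8% of all genes. Which of the 3 libraries is typical of the line could not be told from the labels.

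**Figure D3:**
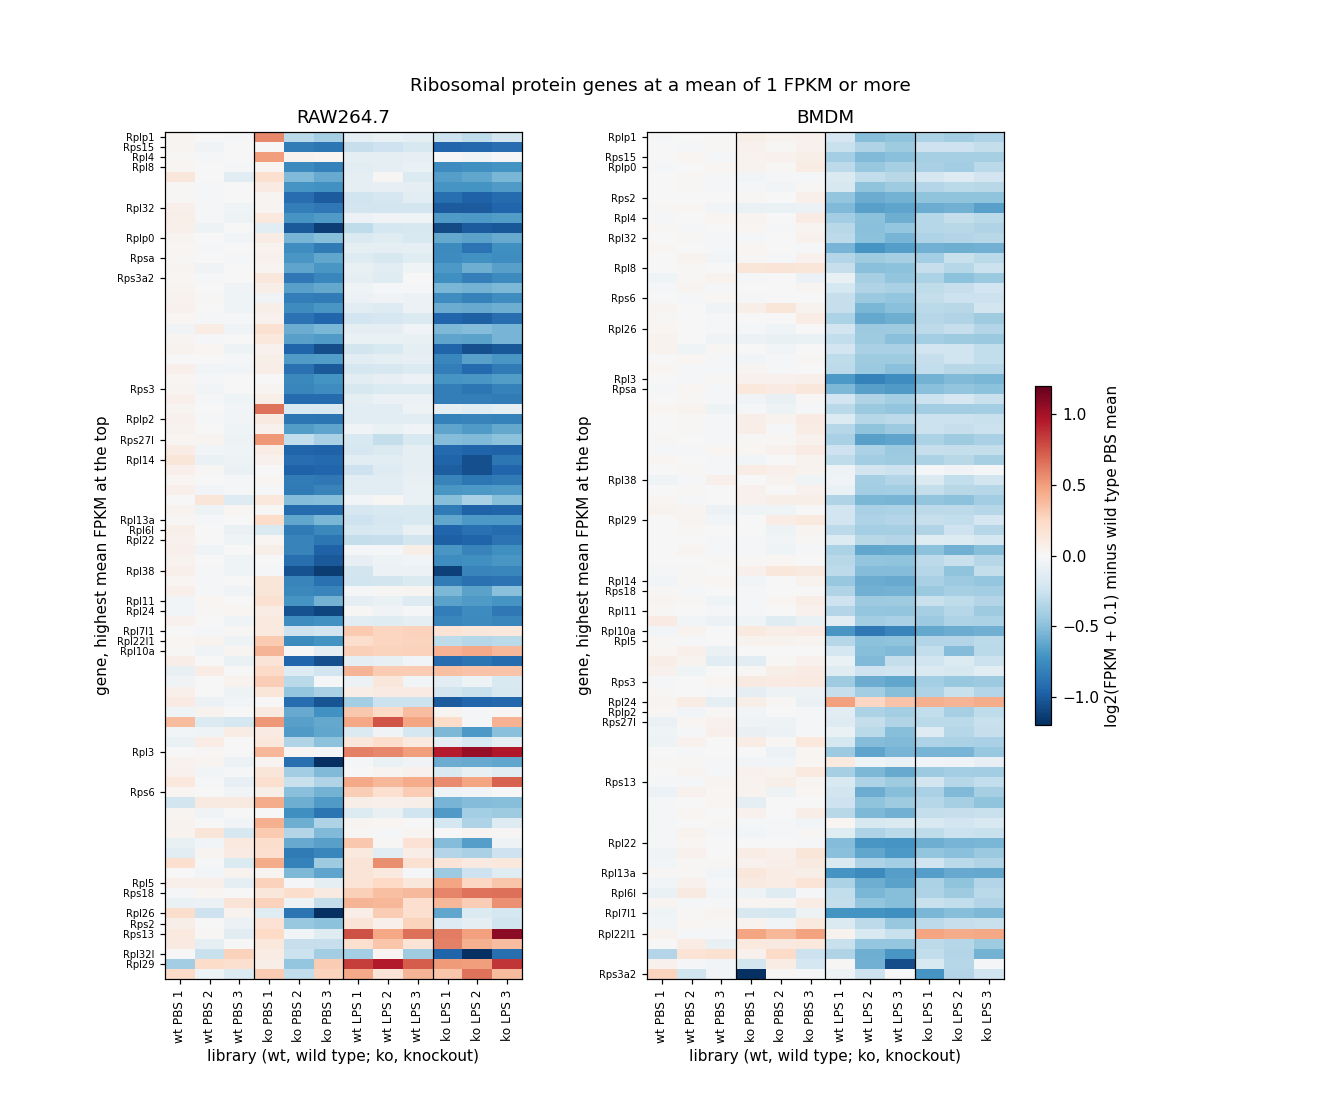
log2(FPKM + 0.1) of each ribosomal protein gene at a mean of 1 FPKM or more, minus its mean in the wild type PBS libraries (color, red higher and blue lower), with genes in rows from highest to lowest mean, some of them labelled, and libraries in columns. In RAW264.7, knockout PBS replicate 1 is pale or red while replicates 2 and 3 and the knockout LPS libraries are mostly blue, and in BMDMs the LPS libraries are mostly blue, with Rpl24 red in all of them and Rpl22l1 red in the knockout libraries.

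With LPS, ribosomal protein genes were lower in the RAW264.7 knockout libraries than in wild type. Of 86 members, 27 were called lower and 0 higher, that is 31.4%, while 17.3% of all genes were called and 7.6% of all genes were called lower. The median log2 fold change was -0.55 over the members and 0 over all genes. At an adjusted p under 0.05 without a fold threshold 32 were lower and 2, Rps18 and Rpl3, were higher, against 11.5% and 13.7% of all genes. Once pseudogene counts were added to their parent genes, 38 members were lower by that rule and 0 higher. The libraries of the groups did not overlap for 75 of 86 members, against 40.2% of all genes.

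Rpl32l and Rpl14 were among the largest falls. Rpl14 of the large subunit stood at 240, 241 and 242 FPKM in wild type and at 135, 126 and 144 in knockout libraries, with no overlap and a log2 fold change of -0.84 (SE 0.23, adjusted p = 0.0253 by limma). Rpl32l, a low-level copy of Rpl32, stood at 3.52, 4.77 and 3.47 FPKM against 2.37, 1.14 and 2.46, a fold of 0.499 (adjusted p = 0.0308). Rpl32 itself fell too, by 0.76 on the log2 scale (adjusted p = 0.0225).

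Both subunits took part. Of the large subunit 15 of 52 members were called lower, with a median of -0.53, and of the small subunit 12 of 34, with a median of -0.58. Among the abundant members Rps15 fell from 1959, 1993 and 2070 FPKM in wild type to 1223, 1236 and 1258 (log2 fold change -0.70, adjusted p = 0.0283), and Rpl8 fell by 0.63 on the log2 scale (adjusted p = 0.0353). The stalk genes did not pass the test with all 12 libraries in the fit: Rplp0 had a log2 fold change of -0.46 (adjusted p = 0.0509), Rplp1 of -0.15 (adjusted p = 0.691) and Rplp2 of -0.68 (adjusted p = 0.0508). With knockout PBS replicate 1 left out of the fit their adjusted p by limma was 6.49e-05, 0.0356 and 6.85e-06 at the same fold changes, and Rplp2 was then called. Rpl4 stood at 1295, 1295 and 1313 FPKM in wild type and 1380, 1356 and 1385 in knockout libraries, with a log2 fold change of 0.08 (adjusted p = 0.717). Rpl3 was higher, from 29.5, 28.9 and 27.4 to 37.3, 39.9 and 37.7 FPKM, by 0.42 on the log2 scale (adjusted p = 0.0217), which is under the fold threshold. Its rise did not pass adjusted p under 0.05 once pseudogene counts were added to their parent genes.

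Members with high levels carried most of the calls. Of the 52 genes at 50 FPKM or more in RAW264.7, 25 were called lower, with a median of -0.64, beside 323 of the 1125 genes of any kind at that level, with a median of -0.39. Of the 32 genes under 50 FPKM 2 were called lower, with a median of -0.30. With pseudogene counts added to their parent genes, 33 members were called lower and 0 higher, with a median of -0.58, the same direction as for the members alone. The number of calls depended on whether knockout PBS replicate 1, a library outside this comparison, shared in the estimate of spread. With it in the fit, leaving out any 1 of the 6 compared libraries left 1 to 2 members called. In those fits 13.1 to 13.9% of all genes were called, a share above that of the members. The median of the members stayed between -0.56 and -0.53. With knockout PBS replicate 1 left out, 36 members were called lower, against 19.2% of all genes, 8.21% lower. With the 6 compared libraries alone 34 were called lower, against 20.6% of all genes. On the TPM scale (FPKM scaled to a fixed sum per library) 3 members were called lower and 1 higher, against 18.2% of all genes called, a share above that of the members. The median of the members was -0.33 on that scale, while the median over all genes rose to 0.13.

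Other short genes had a median like that of the members. The 446 genes that are no member, up to 1000 bases long and at 10 FPKM or more, had a median log2 fold change of -0.58 in the LPS comparison, with 164 called lower and 17 higher. Per library, relative to the wild type PBS mean, their medians were 0.02 in knockout PBS replicate 1, -0.68 and -0.70 in replicates 2 and 3, and -0.71, -0.74 and -0.68 in the knockout LPS libraries. Those of the members were 0.10, -0.70, -0.68, -0.63, -0.64 and -0.59 in the same libraries. Length here is the deposited exonic size of a gene, which need not be the length of its mRNA. By length, among genes at 1 FPKM or more, the median over genes that are no member was -0.28 up to 1 kb, -0.41 at 1 to 2 kb, -0.20 at 2 to 4 kb and 0.23 over 4 kb. In the same classes it was -0.68 for 15 members, -0.57 for 33, -0.23 for 30 and -0.66 for 6. The part of this pattern in the members' values was not tested.

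Members with described roles beyond the ribosome were not alike. Rps3, which also takes part in NF-kB transcription and DNA repair, stood at 364, 370 and 371 FPKM in wild type LPS libraries and at 234, 228 and 237 in the libraries labelled knockout (log2 fold change -0.66, SE 0.18, adjusted p = 0.028). Rpl5 and Rpl11, which bind Mdm2 when ribosome assembly fails, had log2 fold changes of 0.17 (adjusted p = 0.333) and -0.56 (adjusted p = 0.0573). Rps6 had one of -0.29 (adjusted p = 0.19), and Rpsa, the laminin receptor, one of -0.58 (adjusted p = 0.0312), under the fold threshold. Fau, a ubiquitin-like and ribosomal protein fusion outside the symbol rule, had one of -0.28 (adjusted p = 0.318). With knockout PBS replicate 1 left out of the fit the adjusted p by limma was 6.36e-05 for Rpl11, 0.0017 for Rps6 and 0.00677 for Fau, and 0.14 for Rpl5.

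The related lists were not uniform, and 7.6% of all genes were called lower and 9.73% higher in this comparison. Of 22 translation factor and other TOP mRNA genes, 5 were called lower and 0 higher, with a median of -0.31. They included Eif3k, a subunit of translation initiation factor 3 (-0.66, SE 0.18, adjusted p = 0.0258 by limma). Of 83 mitochondrial ribosomal protein genes 24 were called lower and 0 higher, with a median of -0.43. Of 33 ribosome biogenesis genes 3 were called higher, a share near that of all genes, and 0 lower, with a median of 0.03. The 3 included Utp20 of the small subunit processome (log2 fold change 1.17, adjusted p = 0.0086) and Polr1a, the largest RNA polymerase I subunit (0.81, adjusted p = 0.0048). Of 10 regulators 4 were called higher, among them Mtor (0.75, adjusted p = 0.0178) and Myc (0.75, adjusted p = 0.0025), and 1 lower. For the 212 pseudogenes tested the median was -0.56.

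**Figure D4:**
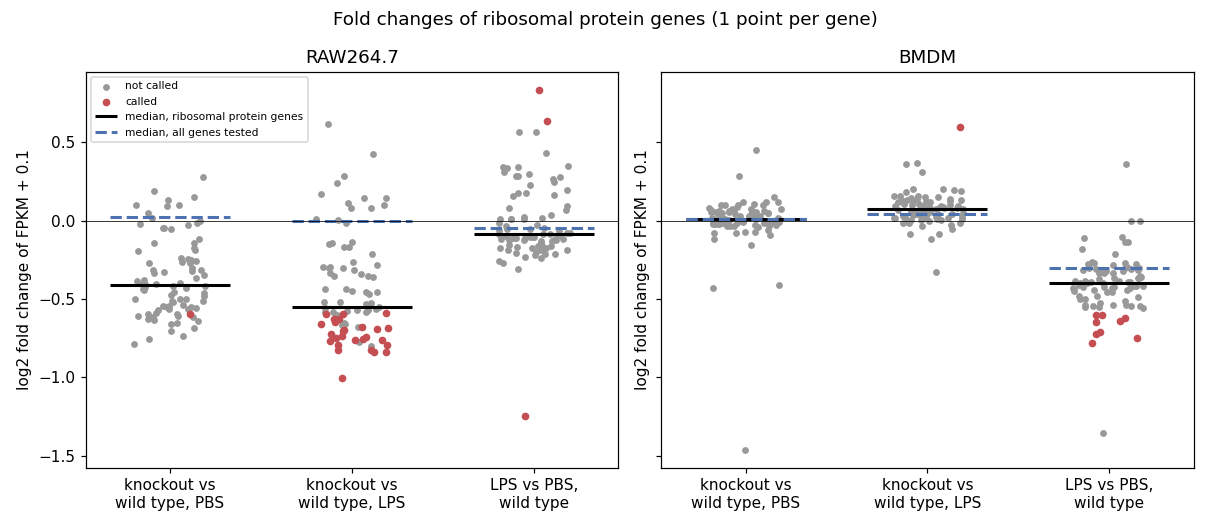
log2 fold change of each ribosomal protein gene tested (vertical axis, on log2 of FPKM + 0.1) in 3 comparisons for each cell type. Grey points did not pass the threshold, red points did, the solid line is the median of the members and the dashed line is the median over all genes tested. In RAW264.7 with LPS 27 points are red and below 0, and in BMDMs 9 are red and below 0 in the LPS comparison.

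LPS itself moved few members in wild type RAW264.7 cells. Of 86 tested 3 were called, against 18.3% of all genes, with 5.8% higher and 12.5% lower. Rpl29 (from a mean of 1.67 to 3.00 FPKM, log2 fold change 0.83, SE 0.23, adjusted p = 0.0234) and Rps13 (0.63, SE 0.17, adjusted p = 0.0194) were higher, and Rpl3l, a muscle paralog of Rpl3, was lower at levels around 1 FPKM (-1.25, SE 0.36, adjusted p = 0.0318). Rpl29 and Rps13 averaged under 6 FPKM in every RAW264.7 group, and Rps13 was not called once pseudogene counts were added to it (0.14). The median of the members was -0.08, beside -0.05 over all genes, and it turned to 0.16, 0.14 and 0.16 with median-ratio scaling, edgeR and DESeq2. In the same comparison Myc rose by 6.22 on the log2 scale (SE 0.12, adjusted p = 1.0e-09) and 4 of 33 biogenesis genes were called higher, such as Rrp9 (0.75) and Wdr43 (0.63), with 1 lower. No member was called for the genotype by LPS interaction by limma (0 of 86, against 1.95% of all genes), and the median interaction was -0.12, or 0.16 without knockout PBS replicate 1.

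In BMDMs the genotypes differed little under PBS. None of 87 members was called (0 of 87, against 1.82% of all genes), and 1 passed adjusted p under 0.05 without the fold threshold, Rpl22l1, against 2.31% of all genes higher by that rule. The median was 0.01 over the members and 0.01 over all genes. Rpl22l1 stood at 14.01, 13.49 and 13.42 FPKM in wild type and at 19.0, 18.0 and 19.1 in Olfml3-/- libraries, with no overlap, and its log2 fold change was 0.45 (SE 0.07, adjusted p = 0.008). Rpl22, the common form, stood at 45.4, 46.7 and 45.9 FPKM against 45.9, 45.8 and 45.4, and did not pass the test.

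With LPS the same paralog was the 1 member called between BMDM genotypes, against 4.76% of all genes, 3.23% higher. Rpl22l1 stood at 14.08, 11.98 and 11.35 FPKM in wild type and at 19.0, 18.6 and 18.8 in Olfml3-/-, and its log2 fold change was 0.59 (SE 0.07, adjusted p = 0.00055). Its groups did not overlap, and its adjusted p stayed under 0.05 with median-ratio scaling (log2 fold change 0.44), edgeR (0.46) and DESeq2 (0.44), where the change was under the fold threshold. Rpl22 had a log2 fold change of 0.08 (adjusted p = 0.42). On the FPKM scale Rpl3, Rpl4, Rpl7l1 and Rpl10a were also higher at adjusted p under 0.05, by 0.18 to 0.20 on the log2 scale, and 13.6% of all genes were higher by that rule. With median-ratio scaling, edgeR and DESeq2 only Rpl22l1 was higher by that rule, and 2, 21 and 28 members were lower. By the same rule 14, 17.2 and 31.6% of all genes passed, in either direction. The median on the FPKM scale was 0.07 over members and 0.04 over all genes. No member was called for the genotype by LPS interaction (0 of 87, against 2.93% of all genes), and Rpl7l1 passed without the fold threshold (0.35, SE 0.07, adjusted p = 0.0204), against 4.64% of all genes higher by that rule.

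In RAW264.7 cells Rpl22l1 went the other way, from 77.3, 79.8 and 80.4 FPKM in wild type LPS libraries to 54.0, 52.7 and 53.3 in the libraries labelled knockout, a log2 difference of -0.57. It did not pass the test with all 12 libraries in the fit (adjusted p = 0.117) but did with knockout PBS replicate 1 left out (adjusted p = 3.13e-05 by limma) and with the 6 compared libraries alone (adjusted p = 0.0012). Rpl22 in those libraries fell from 136, 137 and 142 to 83.7, 84.9 and 89.2 FPKM (log2 fold change -0.68, adjusted p = 0.032). The paralog pairs Rpl39 and Rpl39l, Rpl10 and Rpl10l, and Rps4x and Rps4l had the second form at or near 0 in RAW264.7. Rps27l, which is known as a p53 target, stood at 224, 209 and 223 FPKM in wild type LPS libraries and 177, 176 and 180 in knockout libraries, a log2 difference of -0.30 (adjusted p = 0.333, or 0.0023 with knockout PBS replicate 1 left out of the fit).

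LPS lowered most members in wild type BMDMs on the FPKM scale, and this direction depended on scaling. At adjusted p under 0.05 without a fold threshold, 78 of 87 members were lower and 1, Rpl24, was higher, that is 90.8%, against 50.7% of all genes, 40.1% lower and 10.6% higher. With the fold threshold 9 of 87 were lower and 0 higher, or 10.3%, against 40.4% of all genes, 32.5% lower. The median of the members was -0.40, beside -0.30 over all genes tested. The 10555 genes at 1 FPKM or more had a median of -0.73, and the 889 genes at 50 FPKM or more one of -0.15. At that higher level stood 65 members, with a median of -0.40. With median-ratio scaling, edgeR and DESeq2 the median of the members tested turned to 0.39, 0.30 and 0.40. With these, 6, 3 and 6 members were called, all higher, against 31.4, 32.9 and 30.6% of all genes. On the FPKM scale the members lay 0.10 below the median of all genes tested but above that of the genes at 1 FPKM or more. With median-ratio scaling they lay 0.39 above the median of all genes tested, which was 0. Medians by level were not taken on that scale.

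The genes called lower included Rpl10a, Rpl3, Rpl7l1, Rpl13a, Rpl22, Rpsa, Rpl10 and Rpl18. Rpl10a stood at 95.1, 100.5 and 97.3 FPKM with PBS and at 60.3, 53.9 and 56.3 with LPS, with a log2 fold change of -0.78 (SE 0.05, adjusted p = 3.55e-07 by limma), and Rpl3 stood at 178, 175 and 180 against 110, 102 and 106 (-0.75, adjusted p = 1.5e-07). Rpl7l1 fell by 0.73 on the log2 scale. Rpl13a, which has a described role outside the ribosome in silencing inflammatory mRNAs, stood at 37.1, 37.2 and 35.9 FPKM with PBS and 22.5, 21.5 and 23.2 with LPS (-0.71). Each of these values turned positive with median-ratio scaling, at 0.02 for Rpl10a, 0.06 for Rpl3, 0.07 for Rpl7l1 and 0.09 for Rpl13a.

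On the FPKM scale Rpl24 was the exception, at 60.7, 63.2 and 54.8 FPKM with PBS and 83.7, 70.5 and 75.3 with LPS, a rise of 0.36 on the log2 scale (SE 0.08, adjusted p = 0.0028). Rpl22l1 did not pass the test, with a log2 fold change of -0.13 (adjusted p = 0.175). The stalk genes were lower without reaching the fold threshold, by 0.39 for Rplp0 (adjusted p = 7.0e-05), 0.40 for Rplp1 (adjusted p = 0.0012) and 0.31 for Rplp2 (adjusted p = 0.0043). With median-ratio scaling and with DESeq2 all 84 members at 1 FPKM or more were higher, the stalk genes among them. In BMDMs treated with LPS, wild type replicate 1 lay above replicates 2 and 3 for 82 of 84 members. The share of all genes in which it did so was not counted. Without replicate 1, 19 of 87 members were called lower. In that fit 40% of all genes were called, 8587 of them lower, so the share of members called was below that of all genes.

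The related lists in BMDMs held more genes called lower than higher with LPS on the FPKM scale, on which 32.5% of all genes were called lower. All genes at 1 FPKM or more had a median log2 fold change of -0.73. Of 33 ribosome biogenesis genes, 22 were called lower and 1 higher, with a median of -0.99. The 22 included 2 genes at low levels. Polr1b, a second RNA polymerase I subunit, went from a mean of 3.34 to 0.46 FPKM (-2.61, SE 0.08, adjusted p = 2.7e-09), and Wdr12 from 1.69 to 0.39 FPKM (-1.88). Of 22 translation factor and TOP mRNA genes, 8 were called lower, a share near that of all genes, with a median of -0.50, such as Eif4b (-1.89) and Eif4a2 (-1.45). Of 83 mitochondrial ribosomal protein genes 50 were called lower and 1 higher, with a median of -0.64. Among the 10 regulators 5 were called lower, with Myc at -3.27 and Eif4ebp2 at -3.22, and 2 higher. In the Olfml3-/- LPS libraries against wild type, Myc was higher (1.19, adjusted p = 1.3e-05), as was Bysl (0.60, adjusted p = 0.0015).

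**Figure D5:**
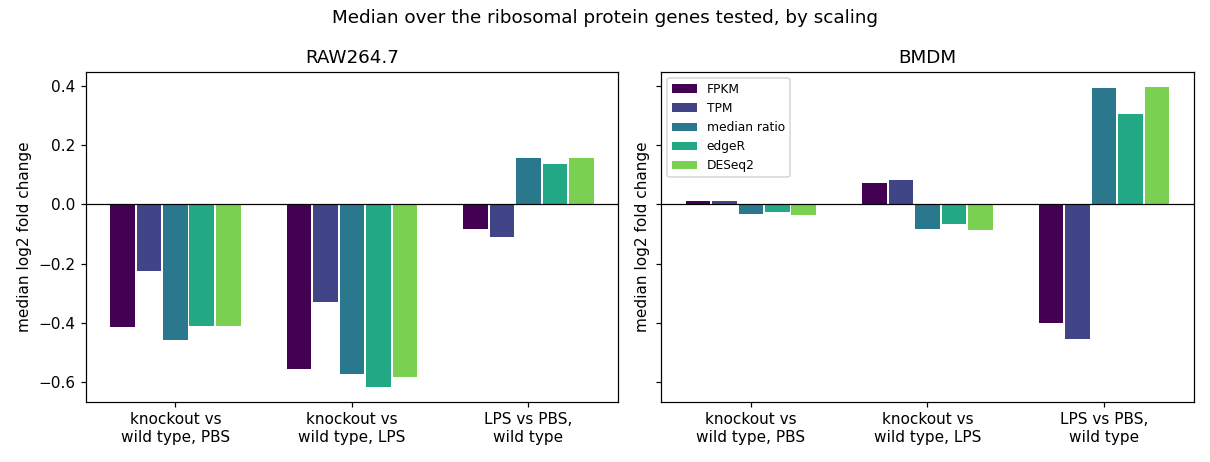
Median log2 fold change over the ribosomal protein genes tested (vertical axis) in 3 comparisons for each cell type, with bars for FPKM, TPM, median-ratio scaling, edgeR and DESeq2. The LPS bars in BMDMs lie below 0 with FPKM (-0.40) and above 0 with median-ratio scaling (0.39), while the RAW264.7 knockout bars lie below 0 with every scaling.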

How the data were processed

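RNA-seq was done on 24 libraries. The authors deposited 2 tables, 1 per cell type, with a gene length, raw counts per gene and FPKM per library. The labels name the mm10 genome, and the read aligner was not given in the sources used here. Deposited FPKM was checked against counts, gene length and total count, and lay within 1% for 100% of member values over 50 counts. Groups were taken from titles, since the genotype tag goes against the title for knockout PBS and wild type LPS libraries. limma 3.58.1 was fitted to log2(FPKM + 0.1) with 4 group means over 12 libraries per cell type, for genes above 0 in at least 1 library, with Benjamini-Hochberg adjustment. edgeR 4.0.16 (quasi-likelihood) and DESeq2 1.42.0 on the deposited counts, TPM, median-ratio scaling, other pseudocounts, a filter, the replicate block and leave-one-out were alternatives. Scripts were tested on simulated data. A fold change on this scale understates the change of low genes. Low counts limit the precision of members near 1 FPKM. Genes named with values were the 5 highest members, the largest called changes, paralogs, stalk genes, members with other roles, Fau and Olfml3. Some genes that this rule names are not reported here. The members and lists were chosen with earlier results of these data known. Genes outside the rule that the text names after their values were seen are Eif3k, Rpl18, Rpl24, Rpl26, Rpl32, Rpl38, Rps2, Rps3a2 and Rps18. Ribosomal protein coordinates in the tables were not used, and sequences are from RefSeq GRCm38.p6.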

Additional observations from a re-analysis of the deposited data

Results flagged for a closer look

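The interaction of genotype and LPS passed the threshold by limma for the targeted gene, with a log2 value of 4.13 in RAW264.7 and 0.83 in BMDMs for Olfml3. The BMDM value was lost and reversed with edgeR (-1.14, adjusted p = 0.81) and DESeq2 (-1.30, adjusted p = 0.60), and Olfml3 was at most 0.03 FPKM in the Olfml3-/- libraries, below the pseudocount of 0.1. For the following genes every library of one genotype lay on one side in RAW264.7 and on the other side in BMDMs, and the difference between the cell types was not tested. Olfml3 had a knockout effect of 1.96 in RAW264.7 and -2.58 in BMDMs under PBS, and of 6.10 and -1.75 with LPS. With LPS, the log2 knockout effect in RAW264.7 and in BMDMs was -0.57 and 0.59 for Rpl22l1, -0.14 and 0.19 for Rpl7l1, -0.58 and 0.13 for Rpsa, -0.46 and 0.0879 for Rpl13a, and -0.70 and 0.0827 for Rps15. Of the BMDM values only that of Rpl22l1 passed both thresholds by limma, and the others among these ribosomal genes were small.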

How the results depend on the processing

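The RAW264.7 knockout difference with LPS kept its direction under every scaling tried. The number of members called in that comparison was 17 with a pseudocount of 0.01, 4 with TPM, 43 with edgeR and 41 with DESeq2 (15.9, 18.2, 18.1 and 17.3% of all genes), against 27, and the median was -0.33 with TPM, -0.61 with edgeR and -0.58 with pseudogene counts added. Leaving out 1 library gave 1 to 36 called (13.1 to 19.2% of all genes) and medians of -0.56 to -0.53. Under PBS, 0 members were called with a pseudocount of 0.01, TPM, the replicate block or the 2 groups alone (6.77, 8.37, 7.06 and 4.05% of all genes). A pseudocount of 1 or median-ratio scaling gave 2 (5.51 and 7.87%). The low-value filter gave 10 of 85, edgeR 11 of 86 and DESeq2 12 of 86. The members called were all lower, and 19.5, 12.7 and 12.1% of all genes were called in either direction. Of the 26740 genes tested, 1336 were called lower with edgeR and 1293 with DESeq2, smaller shares than those of the members. Leaving out 1 library gave 0 to 54 and medians of -0.67 to -0.29. The 54 came without knockout replicate 1, where 20.8% of all genes were called. For LPS in wild type RAW264.7, 1 was called with a pseudocount of 1, 5 with edgeR, 7 with DESeq2 and 5 on adjusted p alone. The shares of all genes called were 13.1, 16.9, 16.2 and 24.4%. The median reversed to 0.16, 0.14 and 0.16 with median-ratio scaling, edgeR and DESeq2. Leaving out 1 library gave 0 to 3 called. Without wild type LPS replicate 1 it was 0, with 17.2% of all genes called. The RAW264.7 interaction median ranged from -0.25 to 0.16 on leaving out 1 library. In BMDMs the genotype median under PBS was -0.0343, -0.0252 and -0.0347 with median-ratio scaling, edgeR and DESeq2. On adjusted p alone 1 member was called (4.14% of all genes). With LPS, 0 were called with a pseudocount of 1, median-ratio scaling, edgeR or DESeq2 (1.63, 4.6, 4.89 and 4.4% of all genes). On adjusted p alone 5 were called (17.8% of all genes). Leaving out 1 library gave 0 to 2, with 4.53% of all genes called in the fit with 2. The median was -0.0832, -0.0665 and -0.0857 with median-ratio scaling, edgeR and DESeq2. For LPS in wild type BMDMs, 15 were called with TPM, 3 with edgeR and 79 on adjusted p alone (43.4, 32.9 and 50.7% of all genes). Leaving out 1 library gave 8 to 19, with 40% of all genes called in the fit with 19. The median of the members reversed to 0.39, 0.30 and 0.40 with median-ratio scaling, edgeR and DESeq2. In that comparison all 84 members at 1 FPKM or more were higher with median-ratio scaling and with DESeq2, and 80 with edgeR. Examples with median-ratio scaling and DESeq2 were Rpl3 0.0559 and 0.0567, Rpl7l1 0.0748 and 0.0745, Rpl10 0.20 and 0.20, Rpl22 0.16 and 0.16, Rpl22l1 0.66 and 0.67, Rpsa 0.18 and 0.18, Rpl13a 0.0903 and 0.0913, and Rpl10a 0.0218 and 0.0230. With edgeR, Rpl10 was at 0.11, Rpl22 at 0.0689, Rpsa at 0.0889 and Rpl22l1 at 0.58. The BMDM interaction median was -0.0667, -0.0603 and -0.0718 with median-ratio scaling, edgeR and DESeq2, and leaving out 1 library gave 0.0163 to 0.10. On adjusted p alone 1 member was called (6.53% of all genes). The Olfml3 interaction reversed to -1.14 with edgeR and -1.30 with DESeq2. The causes were not tested. Replicate numbers did not pair the samples, with correlations of deviations from -0.06 to 0.08, and the replicate block gave 0 called members under PBS in RAW264.7. The alternatives with 2 groups alone, pseudogene counts added and replicate 1 left out of the other fits were chosen after seeing the data.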
